A study of Mus musculus with 12 samples.

Results

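The 10 genes of inflammasome signaling, pyroptosis and necroptosis were taken by symbol from the 54833 genes measured, and all 10 were detected deeply enough to be tested, among 21495 genes tested. They were the sensors Nlrp3 and Nlrc4, the adaptor Pycard (ASC), the inflammatory caspases Casp1 and Casp4 (the mouse gene of caspase-11), the pore former Gsdmd, the membrane rupture gene Ninj1, and the necroptosis genes Casp8, Ripk3 and Mlkl. RNA-seq had been done on perihematomal tissue of the ipsilateral caudate putamen of wild-type male C57BL/6 mice, with 3 samples in each of 4 groups, and tissue of more than 1 mouse was pooled in a sample. The young groups had an age of 8 to 10 weeks and the aged groups of 20 to 22 months. ICH mice received type IV collagenase in the striatum, sham mice went through the same surgery with saline in its place, and all were perfused and sampled 24 h later. Collagenase opens vessel walls, so the model holds the effect of the enzyme together with that of the blood.

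An inflammasome forms when a sensor such as NLRP3 meets a danger signal and gathers the adaptor ASC, which brings caspase-1 molecules together so that they cut each other. Active caspase-1, or caspase-11 bound to bacterial lipopolysaccharide in the non-canonical pathway, cuts gasdermin D, whose free end forms pores through which interleukin-1β leaves the cell, and ninjurin-1 then breaks the membrane (pyroptosis). In necroptosis RIPK3 phosphorylates MLKL, which opens the membrane when caspase-8, the brake of the pathway, is inactive. These proteins are switched on by assembly, cleavage or phosphorylation, and the values given here are those of the mRNAs only.

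The summed level of a marker list was compared between samples, as a measure of marker RNA and not of cell number. Choroid plexus markers summed to 4070 CPM (counts scaled to the size of the library) in young ICH 3 and to 1555 and 1973 CPM in aged ICH 1 and 2, against 12.4 to 490 CPM in the other 9 samples, so these 3 libraries stood apart and values without them are given below. Striatal neuron markers, the check of the labelled tissue, were present in every sample but at unlike levels. They summed to 1774 to 3024 CPM in young sham, 513 to 1725 in young ICH, 1513 to 2640 in aged sham and 325 to 1912 in aged ICH. The lowest sums were those of aged ICH 1 (325 CPM), young ICH 2 (513 CPM) and aged ICH 3 (741 CPM). Young ICH 2 and aged ICH 3 are kept where the libraries high in choroid plexus markers are left out. Depth ranged from 28410896 to 37785160 counts per sample, and no pair of samples in a group agreed within sampling noise.

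The promoters of 4 members are shown, because 2 of them held a searched motif and the other two belonged to the gene with the largest response to ICH in aged mice (Mlkl) and the gene with the largest difference between the ages (Casp1). Each line is the 250 bases before the RefSeq start, read 5′ to 3′ on the strand of the gene, and capitals mark motif matches. They are Casp4 at chr9:5308599-5308848 (+), Pycard at chr7:127993868-127994117 (-), Casp1 at chr9:5298267-5298516 (+) and Mlkl at chr8:111338206-111338455 (-), all GRCm38.p6.
Casp4: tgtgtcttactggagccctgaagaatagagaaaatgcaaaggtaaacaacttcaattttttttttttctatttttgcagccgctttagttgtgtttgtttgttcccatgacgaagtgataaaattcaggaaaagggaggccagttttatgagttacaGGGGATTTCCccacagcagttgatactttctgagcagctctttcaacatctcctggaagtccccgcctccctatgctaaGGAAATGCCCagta
Pycard: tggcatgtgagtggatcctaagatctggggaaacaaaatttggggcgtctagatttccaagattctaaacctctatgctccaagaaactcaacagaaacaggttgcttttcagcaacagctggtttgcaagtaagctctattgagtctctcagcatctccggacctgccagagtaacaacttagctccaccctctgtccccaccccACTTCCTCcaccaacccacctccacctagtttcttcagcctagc
Casp1: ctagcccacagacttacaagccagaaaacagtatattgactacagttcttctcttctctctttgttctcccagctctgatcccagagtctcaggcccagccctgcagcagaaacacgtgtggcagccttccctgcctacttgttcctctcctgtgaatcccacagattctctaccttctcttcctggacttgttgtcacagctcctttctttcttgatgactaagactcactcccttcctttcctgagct
Mlkl: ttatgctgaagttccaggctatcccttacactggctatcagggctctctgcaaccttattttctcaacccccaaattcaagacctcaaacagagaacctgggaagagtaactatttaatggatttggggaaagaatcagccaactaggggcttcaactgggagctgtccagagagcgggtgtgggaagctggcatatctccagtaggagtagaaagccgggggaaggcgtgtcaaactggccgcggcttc
RefSeq promoters were found for 9 of the 10 members (all but Gsdmd), in 11 windows. 4 motifs were searched on both strands, an NF-kB site, a PU.1 site (GAGGAAGT), an interferon-stimulated response element and a gamma-activated site (TTCNNNGAA). The Casp4 promoter held 2 matches to the NF-kB site, GGGGATTTCC at -93 and GGAAATGCCC at -14 from the RefSeq start, a motif held by 1.41% of 32851 mouse windows of the same length. The Pycard promoter held the PU.1 letters on the opposite strand at -44, as 2.44% of windows did. Neither the interferon-stimulated response element (2.98% of windows) nor the gamma-activated site (7.02%) was present in any of the 11 windows. GENCODE places the start of Casp4 inside the window shown. The only Casp8 window (chr1:58802252-58802501) lies inside the gene that GENCODE starts at 58795374, so the bases before that start were not searched. A match is a match of letters, and binding was not measured.

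**Figure D1:**
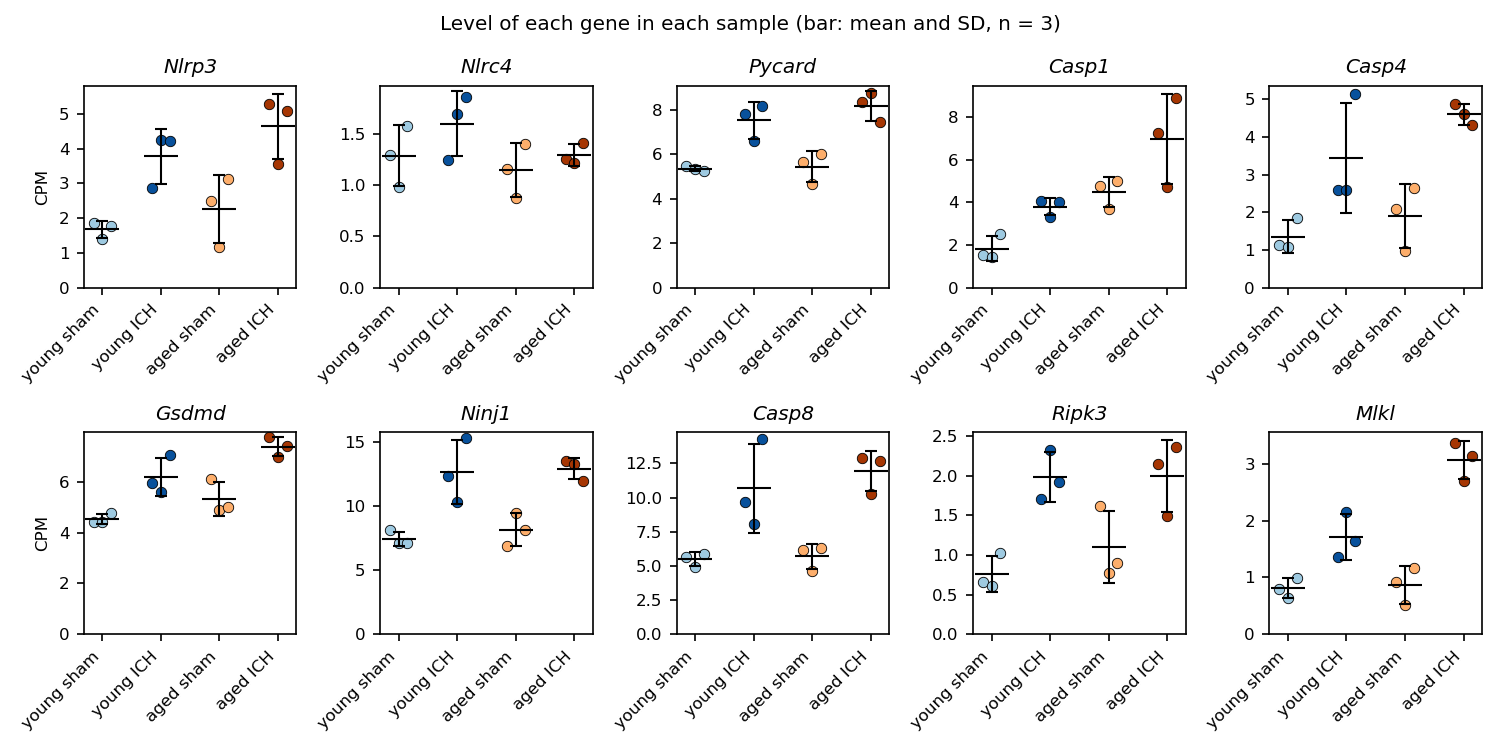
Level of each of the 10 genes in CPM (vertical axis, from 0) in each of the 12 samples, by group (horizontal axis), with the mean and SD of 3 samples in black. In 9 genes all young ICH samples lie above all young sham samples, in 7 genes all aged ICH samples lie above all aged sham samples, and in Casp1 both aged groups lie above the young group of the same surgery.

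Nlrp3, the sensor of ion flux and membrane damage (chr11:59541568-59566956, + strand, GRCm38), was more than 2-fold higher after ICH in both ages. It read 1.85, 1.40 and 1.78 CPM in young sham 1 to 3 and 2.87, 4.26 and 4.22 CPM in young ICH 1 to 3. Aged samples read 2.48, 1.18 and 3.11 CPM in sham and 5.27, 3.56 and 5.09 CPM in ICH. The groups did not overlap in either age, and aged sham 2 was the lowest of all 12 samples. The log2FC was 1.17 ± 0.31 (SE, n = 3 per group, adjusted P = 0.0233) in young and 1.03 ± 0.30 (adjusted P = 0.0447) in aged mice. In young mice the adjusted P missed 0.05 without young ICH 2 (0.0519), young ICH 3 (0.0689), young sham 2 (0.0945) or young sham 3 (0.057). The aged call was lost without aged ICH 1 (0.154), aged ICH 3 (0.122), aged sham 1 (0.1), aged sham 2 (0.105) and, through the shared estimate of the spread, young sham 1 (0.0566), 2 (0.0574) or 3 (0.0605), and with the 2 aged groups alone in the fit (0.0834).

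Nlrc4, the sensor that acts with NAIP proteins on bacterial flagellin (chr17:74425438-74459142, - strand), was the one member that did not pass the test in either age. Its levels were 1.30, 0.983 and 1.58 CPM in young sham, 1.25, 1.70 and 1.86 CPM in young ICH, 1.16, 0.877 and 1.41 CPM in aged sham and 1.26, 1.22 and 1.41 CPM in aged ICH. ICH and sham samples overlapped in both ages. The log2FC was 0.31 in young mice (95% interval -0.21 to 0.84, adjusted P = 0.398) and 0.17 in aged mice (-0.37 to 0.71, adjusted P = 0.69), so a difference of up to 1.79-fold in young and 1.63-fold in aged mice lay within the intervals.

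Pycard, the adaptor that joins a sensor to caspase-1 (chr7:127989708-127993867, - strand), rose by a smaller factor and with less spread. Young sham samples read 5.47, 5.36 and 5.25 CPM and young ICH samples 7.84, 6.59 and 8.16 CPM. Aged sham samples read 5.66, 4.65 and 6.02 CPM and aged ICH samples 8.36, 8.77 and 7.45 CPM. All 6 ICH samples lay above all 6 sham samples, with a gap from 6.02 to 6.59 CPM. The log2FC was 0.49 ± 0.13 (adjusted P = 0.0228) in young and 0.59 ± 0.13 (adjusted P = 0.0149) in aged mice. In young mice the call was lost without young ICH 1 (0.0603), young ICH 3 (0.0771), young sham 1 (0.0509), young sham 2 (0.0732) or young sham 3 (0.0673), and with the 2 young groups alone in the fit (0.0542). In aged mice the same happened without aged ICH 1 (0.0636) or aged sham 2 (0.0577). Pycard shares 485 exon bases with Gm45205 on the opposite strand, which had 3 to 13 counts per sample, and the strand setting of the counting was not given in the sources used here.

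Casp1, the protease of the canonical inflammasome (chr9:5298517-5307265, + strand), rose after ICH in young mice. All aged sham samples lay above all young sham samples, a difference that did not pass edgeR's test (adjusted P = 0.118). Casp1 read 1.55, 1.46 and 2.51 CPM in young sham and 4.06, 3.33 and 4.03 CPM in young ICH. It read 4.77, 3.71 and 5.001 CPM in aged sham and 7.25, 4.74 and 8.92 CPM in aged ICH. Aged sham thus overlapped young ICH, and aged ICH 2 fell among the aged sham samples. The log2FC was 1.06 ± 0.26 (adjusted P = 0.0177) in young mice and 0.63 ± 0.25 (adjusted P = 0.115) in aged mice. The call in young mice was lost without young ICH 3 (0.0521), young sham 1 (0.0603) or young sham 2 (0.0786). Without aged ICH 2 the aged comparison passed (adjusted P = 0.0335).

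Casp4, whose product senses lipopolysaccharide inside the cell (chr9:5308828-5336783, + strand), lies 1562 bases beyond Casp1 on the same strand and rose in both ages. It read 1.13, 1.08 and 1.85 CPM in young sham and 2.58, 2.60 and 5.14 CPM in young ICH. It read 2.09, 0.978 and 2.64 CPM in aged sham and 4.88, 4.60 and 4.31 CPM in aged ICH. Young ICH 3, one of the libraries high in choroid plexus markers, was the highest of the 12 samples, and groups did not overlap in either age. The log2FC was 1.35 ± 0.37 (adjusted P = 0.0264) in young and 1.27 ± 0.36 (adjusted P = 0.0387) in aged mice. The young call was lost without young ICH 3 (0.104), young sham 1 (0.0804) or young sham 2 (0.104). The aged call was lost without aged ICH 1 (0.119), aged ICH 2 (0.0618), aged ICH 3 (0.0817), aged sham 1 (0.0945), aged sham 2 (0.111) or young sham 2 (0.0505).

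Gsdmd, the pore former that both caspases cut (chr15:75862327-75867408, + strand), showed the smallest rise of the members that passed. It read 4.42, 4.44 and 4.79 CPM in young sham and 5.95, 5.59 and 7.06 CPM in young ICH. It read 6.12, 4.89 and 5.001 CPM in aged sham and 7.78, 7.01 and 7.42 CPM in aged ICH. ICH and sham did not overlap within either age, whereas aged sham 1 lay above 2 of the young ICH samples. The log2FC was 0.45 ± 0.13 (adjusted P = 0.0341) in young and 0.47 ± 0.13 (adjusted P = 0.0346) in aged mice, which is under the 1.5-fold limit of the study's criterion for DEGs. In young mice the adjusted P was 0.0549, 0.121, 0.0889, 0.11 and 0.0625 without young ICH 1, young ICH 3, young sham 1, young sham 2 and young sham 3. Without aged ICH 1, aged ICH 3, aged sham 2 and aged sham 3 the aged value was 0.133, 0.0909, 0.124 and 0.1. With no filter on low counts the call was also lost in both ages (0.0819 and 0.0751), as it was with only the 2 groups compared in the fit (0.0848 and 0.0527).

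Ninj1, which ruptures the membrane after the pores have opened (chr13:49187485-49196244, + strand), rose in both ages. It read 8.10, 7.11 and 7.09 CPM in young sham and 12.4, 10.3 and 15.3 CPM in young ICH. It read 6.89, 9.48 and 8.12 CPM in aged sham and 13.6, 13.3 and 11.97 CPM in aged ICH. All ICH samples lay above all sham samples of both ages. The log2FC was 0.77 ± 0.15 (adjusted P = 0.00645) in young and 0.66 ± 0.15 (adjusted P = 0.0179) in aged mice. The young call held whichever sample was left out, and the aged call was lost without aged ICH 1 (0.0746) or aged sham 1 (0.0713).

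Casp8, the protease that starts death receptor apoptosis and restrains necroptosis (chr1:58795374-58847503, + strand), was about 2-fold higher after ICH in both ages. It read 5.67, 4.95 and 5.87 CPM in young sham and 9.66, 8.06 and 14.3 CPM in young ICH. It read 6.16, 4.65 and 6.29 CPM in aged sham and 12.9, 10.3 and 12.7 CPM in aged ICH. The highest sham sample was at 6.29 CPM and the lowest ICH sample at 8.06 CPM. The log2FC was 0.96 ± 0.20 (adjusted P = 0.00829) in young and 1.07 ± 0.20 (adjusted P = 0.00873) in aged mice, and no call was lost in any of the 12 fits that each left out 1 sample.

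Ripk3, the kinase of the necrosome (chr14:55784995-55788865, - strand), rose in young mice. It read 0.663, 0.603 and 1.02 CPM in young sham and 1.71, 2.33 and 1.92 CPM in young ICH. It read 1.62, 0.776 and 0.898 CPM in aged sham and 2.15, 1.49 and 2.36 CPM in aged ICH. In aged mice sham 1 lay above ICH 2, and the other samples were separated. The log2FC was 1.38 ± 0.31 (adjusted P = 0.0117) in young mice, lost without young sham 2 (0.0574). In aged mice it was 0.87 ± 0.30 (adjusted P = 0.0834), and it passed without aged sham 1 (0.0409) and with limma on FPKM (0.0439).

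Mlkl, which RIPK3 phosphorylates and which then opens the membrane (chr8:111311797-111338177, - strand), had the largest fold change of the members in aged mice. It read 0.801, 0.634 and 0.990 CPM in young sham and 1.36, 2.16 and 1.64 CPM in young ICH. It read 0.927, 0.506 and 1.17 CPM in aged sham and 3.37, 2.71 and 3.14 CPM in aged ICH. The groups formed 3 steps without overlap, with both sham groups at the bottom, young ICH above them and aged ICH highest. The log2FC was 1.09 ± 0.29 (adjusted P = 0.0246) in young mice, lost without young ICH 2 (0.0681), young ICH 3 (0.053), young sham 1 (0.0629) or young sham 2 (0.1). In aged mice it was 1.82 ± 0.29, a 3.52-fold rise (95% interval 2.28 to 5.43, adjusted P = 0.00526). The aged call held whichever single sample was left out, and the adjusted P was 0.0566 without the 3 libraries high in choroid plexus markers. The lowest raw count behind these values was 15, in aged sham 2.

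Counted together, 9 of 10 members passed the test in young ICH vs. young sham, all higher, where 9.89% of all genes tested passed as higher and 9.23% as lower. In aged ICH vs. aged sham 7 of 10 passed, all higher, where 7% of all genes passed as higher and 6.15% as lower. The median log2FC of the 10 members was 1.01 in young and 0.76 in aged mice, beside 0.02 and 0.00 over all genes. By the study's criterion for DEGs (FC above 1.5 or under 0.67 with an unadjusted P under 0.05) 7 members were upregulated in young and 8 in aged mice, against 8.66% and 7.24% of all genes. Casp1 and Ripk3 were among the 8 in aged mice (edgeR, unadjusted P = 0.0255 and 0.0151). Samples did not overlap in 9 and 7 members, against 18.5% and 17.8% of all genes in the same direction. In 4 members (Pycard, Ninj1, Casp8 and Mlkl) all 6 ICH samples lay above all 6 sham samples, which held for 7.41% of all genes. When 1 sample was left out, between 2 and 9 members passed in young mice, with 2 without young sham 2, 3 without young ICH 3 and 4 without young sham 1. The range was 2 to 7 in aged mice, with 2 without aged ICH 1, 3 without aged sham 2 and 4 without aged ICH 3. Without the 3 libraries high in choroid plexus markers 4 members passed in young mice (Casp1, Ninj1, Casp8 and Ripk3) and 1 in aged mice (Casp8), where 1 aged ICH sample was then left and its spread was taken from the other groups. All 10 members stayed higher in ICH then, with log2FC from 0.19 (Nlrc4) to 1.40 (Ripk3) in young and from 0.30 (Nlrc4) to 1.85 (Mlkl) in aged mice, and Casp4 in young mice went from 1.35 to 0.94 (adjusted P = 0.149).

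**Figure D2:**
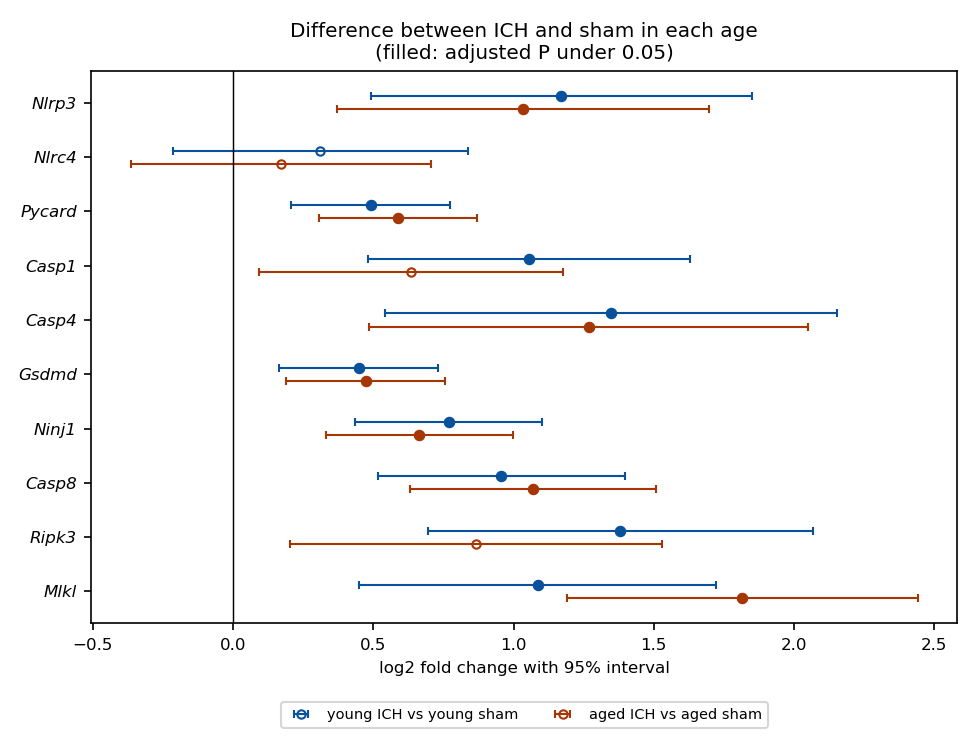
Log2 fold change between ICH and sham (horizontal axis, points, with 95% intervals as bars) for each of the 10 genes (vertical axis) in young and aged mice, filled where the adjusted P is under 0.05. All 20 points lie above 0, from 0.17 for Nlrc4 to 1.82 for Mlkl, both in aged mice.

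Aged sham vs. young sham compared the ages after sham surgery, and aged ICH vs. young ICH compared them after ICH. The summed neutrophil and red blood cell markers also lay higher in aged sham than in young sham, as given below. Their part in the members' values was not tested. Both comparisons of the ages reuse the sham or ICH samples of the comparisons above. No member passed edgeR's test in either, where 0.102% and 0.0558% of all genes did. An unadjusted P under 0.05 was found for 1 and 2 members, near the 12.3% and 9.54% of all genes. DESeq2 called 1 and 0, and no share over all genes is given for its counts here or below. By the study's criterion Casp1 was upregulated in the first, where 2.82% of all genes were, and Casp1 and Mlkl in the second, where 2.21% were. Casp1 was higher in aged sham by a log2FC of 1.29 ± 0.26, or 2.45-fold (95% interval 1.65 to 3.65, unadjusted P = 0.000383, adjusted P = 0.118), and its 3 aged sham samples all lay above the 3 young sham samples. With other settings this comparison passed for Casp1, with an adjusted P of 0.0261 without a filter on low counts and 0.00109 with DESeq2, and over the 12 fits that left out 1 sample its adjusted P ranged from 0.0743 to 0.447. After ICH Casp1 was 1.83-fold higher in aged mice (95% interval 1.25 to 2.67, adjusted P = 0.29), without overlap. Mlkl was 1.79-fold higher in aged ICH than in young ICH (95% interval 1.19 to 2.69, unadjusted P = 0.00927, adjusted P = 0.357), also without overlap, while between the sham groups its log2FC was 0.11 (-0.56 to 0.78). Gsdmd did not overlap between the sham groups, with a log2FC of 0.23 (adjusted P = 0.499). Samples of 2 members lay wholly higher in aged sham and of 2 in aged ICH, against 9.81% and 6.9% of all genes. The median log2FC of the members between the ages was 0.18 in sham and 0.21 after ICH, beside 0.01 and -0.01 over all genes (0.009 and -0.005).

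Whether the response to ICH itself differed between the ages was tested as the interaction of age and ICH, for which 0% of all genes passed and 2.82% had an unadjusted P under 0.05. No member passed, every adjusted P was 1, and none had an unadjusted P under 0.05 or passed with DESeq2. The largest difference was that of Mlkl, whose log2FC was 0.73 higher in aged mice (95% interval -0.16 to 1.62, unadjusted P = 0.0994). Ripk3 had an interaction of -0.52 (-1.47 to 0.44, unadjusted P = 0.259) and Casp1 of -0.42 (-1.21 to 0.36, unadjusted P = 0.265), both smaller in aged mice in the point estimate. Pycard, Gsdmd and Ninj1 had the narrowest intervals, with a difference of responses between -0.30 and 0.50, -0.38 and 0.43, and -0.58 and 0.37. The passes of Casp1 and Ripk3 in young mice alone are therefore not shown to differ from the aged response.

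**Figure D3:**
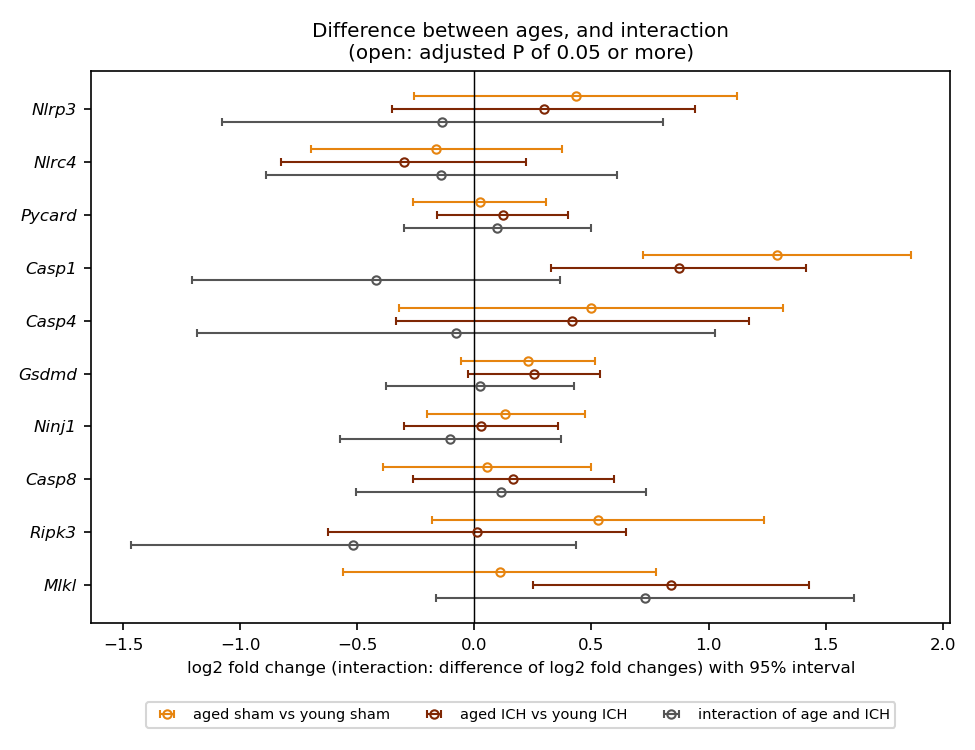
Log2 fold change between the ages in sham and in ICH, and the interaction (horizontal axis, points, with 95% intervals), for each of the 10 genes (vertical axis). Casp1 in both age comparisons and Mlkl after ICH have intervals above 0, no interaction interval excludes 0, and no point passes an adjusted P of 0.05.

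Levels were compared between genes on the FPKM scale, which divides by transcript length. Ninj1 had the highest mean level in every group, with 4.53 FPKM in young sham, 8.23 in young ICH, 5.13 in aged sham and 8.53 in aged ICH, and did not overlap the next gene in any group. Nlrc4 was the lowest in every group, from 0.24 FPKM in aged sham to 0.35 FPKM in young ICH, and overlapped the gene above it in both sham groups but in neither ICH group. Casp1 was the 5th of the 10 in young sham at 1.18 FPKM, where it overlapped Pycard, and the 2nd in aged sham at 2.96 FPKM and in aged ICH at 4.82 FPKM, where it overlapped Gsdmd and Casp8, respectively. In young sham Nlrp3 (0.40 FPKM), Casp4 (0.35), Mlkl (0.34) and Ripk3 (0.32) could not be ordered, since each overlapped the next. In aged ICH Mlkl stood at 1.38 ± 0.15 FPKM (SD, n = 3) and overlapped Casp4 at 1.28 ± 0.08 FPKM, while its lowest sample (1.22 FPKM) lay above the highest of Ripk3 (1.06 FPKM). In young ICH the levels of Mlkl (0.76 FPKM) and Ripk3 (0.88 FPKM) overlapped.

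**Figure D4:**
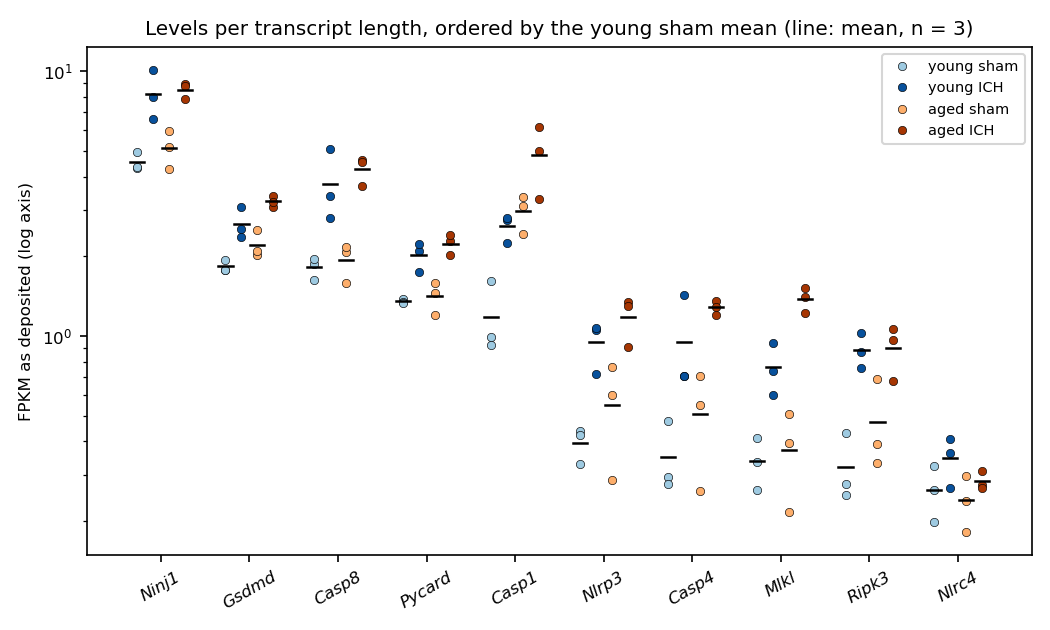
FPKM of each gene in each sample (vertical log axis), with the mean of 3 samples as a line, ordered along the horizontal axis by the young sham mean. Ninj1 is highest and Nlrc4 lowest in each of the 4 groups, and Casp1 moves from 1.18 FPKM in young sham to 4.82 FPKM in aged ICH.

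Over the 12 samples the 36 pairs of members without Nlrc4 had Pearson correlations of log2 CPM from 0.566 to 0.941 (median 0.848), and the 9 pairs with Nlrc4 from 0.161 to 0.619. The highest was that of Nlrp3 with Mlkl. These are descriptions, since the samples share the groups, and any gene that differs between ICH and sham in the same direction correlates with the others. The most similar genes among all tested were Klk9 (r = 0.984), Tnfrsf1b and Gm16174 for Nlrp3, and Plet1 (r = 0.881), Cfap100 and Gm37331 for Nlrc4. Pycard was most similar to Gadd45g (r = 0.974), Myo1f and Txnrd1. Casp4 was closest to Tlr2 (r = 0.982), a receptor of bacterial lipoproteins, Stx11 and the chemokine Ccl7. For Casp1 they were Crebzf (r = 0.950), Srsf1 and Exosc8, whose own log2FC in young ICH vs. young sham was 0.15, 0.14 and 0.18, well under the 1.06 of Casp1. Gsdmd was nearest to the peptide transporter gene Tap2 (r = 0.970), Slc8b1 and Elf4, and Ninj1 to Rpl3-ps1 (r = 0.983) and Nuak2. The list for Casp8 was Dnase1l1 (r = 0.982), Cnn3 and Pla2g4a, and that for Ripk3 Adsl (r = 0.951), Apba3 and Mb21d1, the gene of cGAS, a sensor of cytosolic DNA (r = 0.942). Mlkl was most similar to Serpina3m (r = 0.978), Samsn1 and Csf2rb.

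Of 77 other genes of the pathways, in 7 lists, 69 could be tested, and 24 of these passed as higher and 2 as lower in young ICH, and 23 as higher and 2 as lower in aged ICH. Over all genes 9.89% passed as higher and 9.23% as lower in young and 7% and 6.15% in aged mice. None passed edgeR's test between the ages in sham or after ICH, or in the interaction (adjusted P of 1 for each gene named below), while 12, 10 and 4 had an unadjusted P under 0.05, as 12.3%, 9.54% and 2.82% of all genes did. The 4 in the interaction were Irf1, with a response 0.58 ± 0.26 larger in aged mice on the log2 scale (unadjusted P = 0.0439), and Txnip, Aim2 and Il1r1 in the opposite direction, with -0.58 ± 0.22 (unadjusted P = 0.0233), -0.40 ± 0.18 (unadjusted P = 0.0454) and -0.41 ± 0.19 (unadjusted P = 0.0477). DESeq2 called 1 between the sham groups (Il33) and 0 in the interaction. Between the ICH groups DESeq2 called 4 (Il33, Irf1, Gbp7 and Naip5), all but the last named by the rule for named genes. Without a share over all genes for DESeq2, these counts are not read as a difference between the ages. The median log2FC over the 69 genes was 0.39 in young and 0.35 in aged mice.

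Among 15 other inflammasome sensors and partners 5 passed as higher in young mice, where 9.89% of all genes did. In aged mice 2 passed as higher, too few to set apart from the 7% of all genes. Txnip, whose product binds NLRP3 under oxidative stress, averaged 16.7 ± 1.48 CPM (SD, n = 3) in young sham and 37.8 ± 5.89 CPM in young ICH, with log2FC of 1.18 (adjusted P = 0.00159) in young and 0.60 (adjusted P = 0.0274) in aged mice. Aim2, a sensor of cytosolic DNA, had a log2FC of 0.62 (adjusted P = 0.00696) in young and 0.22 (adjusted P = 0.262) in aged mice. The pyrin gene Mefv passed in young mice at 2.63 (adjusted P = 0.0154) and had 1.52 (adjusted P = 0.0889) in aged mice. Casp12 had 0.76 (adjusted P = 0.0314) and 0.20 in the same order. The Naip genes of this list are near-identical copies, and their counts are uncertain to that extent.

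Of the 8 substrates, receptors and antagonists 5 passed as higher in young and 4 in aged mice, against 9.89% and 7% of all genes. Il1b itself, the main substrate of caspase-1, read 0.774 to 1.09 CPM in young sham and 2.09 to 5.17 CPM in young ICH, and its log2FC of 2.04 in young (adjusted P = 0.0604) and 1.39 in aged mice (adjusted P = 0.169) did not pass. By the study's criterion Il1b was upregulated in both ages (unadjusted P = 0.0127 and 0.0481), and ICH and sham did not overlap in either. In aged sham its samples ran from 0.472 to 6.62 CPM, and in aged ICH from 6.97 to 8.22 CPM. Il18, the other substrate, was at 17.7 to 23.9 CPM in all samples, with log2FC of -0.03 (95% interval -0.26 to 0.20) in young and -0.07 (-0.30 to 0.16) in aged mice. The receptor Il1r1 rose by 1.49 (adjusted P = 0.00043) and 1.08 (adjusted P = 0.00316), and the decoy receptor Il1r2 by 2.42 (adjusted P = 0.00241) and 1.89 (adjusted P = 0.00997). Il18bp, which neutralizes interleukin-18, had 0.41 and 0.64 (adjusted P = 0.0364 and 0.00891), and the alarmin Il33 1.08 and 0.90 (adjusted P = 0.00801 and 0.0233).

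Inducers of the non-canonical pathway passed as higher in 5 of 10 genes in young and 8 of 10 in aged mice. Over all genes 9.89% and 7% did. None of the 10 passed in the interaction of age and ICH, so their responses are not shown to differ between the ages. Tlr4, the surface receptor of lipopolysaccharide, rose by a log2FC of 1.28 (adjusted P = 0.0039) and 1.13 (adjusted P = 0.0102). Irf1, a transcription factor induced by interferon, read 7.87 to 9.07 CPM in young sham, 10.2 to 11.5 in young ICH, 7.05 to 11.9 in aged sham and 15.7 to 22.9 in aged ICH. Its log2FC was 0.37 (adjusted P = 0.18) in young and 0.96 (adjusted P = 0.00915) in aged mice. The GTPase genes Gbp7 and Irgm1 had 0.59 (adjusted P = 0.115) and 1.04 (adjusted P = 0.0255) in young mice and 1.23 (adjusted P = 0.0103) and 1.42 (adjusted P = 0.0102) in aged mice. The name of the list does not show that its genes induced the pathway here, which was not tested.

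In the list of 22 necroptosis and death receptor partners 8 passed as higher and 1 as lower in young mice, and 7 as higher and 1 as lower in aged mice. The TNF receptor Tnfrsf1a went from 15.2 to 18.8 CPM in young sham to 47.2 to 64.3 CPM in young ICH, with log2FC of 1.69 (adjusted P = 0.00176) in young and 1.44 (adjusted P = 0.00536) in aged mice. The death receptor Fas had 1.22 (adjusted P = 0.00603) and 1.13 (adjusted P = 0.0127). Ripk1, the kinase upstream of RIPK3, rose by 0.68 (adjusted P = 0.0166) and 0.84 (adjusted P = 0.0102), and Birc3, a ubiquitin ligase acting on it, by 0.86 (adjusted P = 0.00886) and 0.87 (adjusted P = 0.0123). Zbp1, a sensor of Z-form nucleic acid that can engage RIPK3, had 0.67 (adjusted P = 0.312) in young and 1.49 (adjusted P = 0.0454) in aged mice, with an interaction of 0.81 ± 0.62 (unadjusted P = 0.212). The ligand Tnf was at 0.254 to 0.359 CPM in young sham and 0.609 to 0.666 CPM in young ICH, which did not overlap, at 0.135 to 1.44 CPM in aged sham and at 0.88 to 1.23 CPM in aged ICH. Its log2FC was 1.10 (95% interval -0.19 to 2.39, adjusted P = 0.217) in young mice, 0.46 (-0.67 to 1.58, adjusted P = 0.601) in aged mice and 1.33 (0.06 to 2.60, unadjusted P = 0.0422, adjusted P = 0.387) in aged sham vs. young sham.

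Of 7 membrane repair genes of the ESCRT machinery, which can remove pores, Chmp3 passed as lower in both ages (log2FC -0.22 and -0.28) and Chmp2a as higher in aged mice (0.21). These are too few to set apart from all genes. Of those 9.23% passed as lower in young mice, and 6.15% as lower and 7% as higher in aged mice. Of the 9 other gasdermin genes only Gsdme could be tested, with log2FC of -0.18 (adjusted P = 0.219) and -0.24 (adjusted P = 0.128), and the other 8 had at most 12 counts in any sample.

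**Figure D5:**
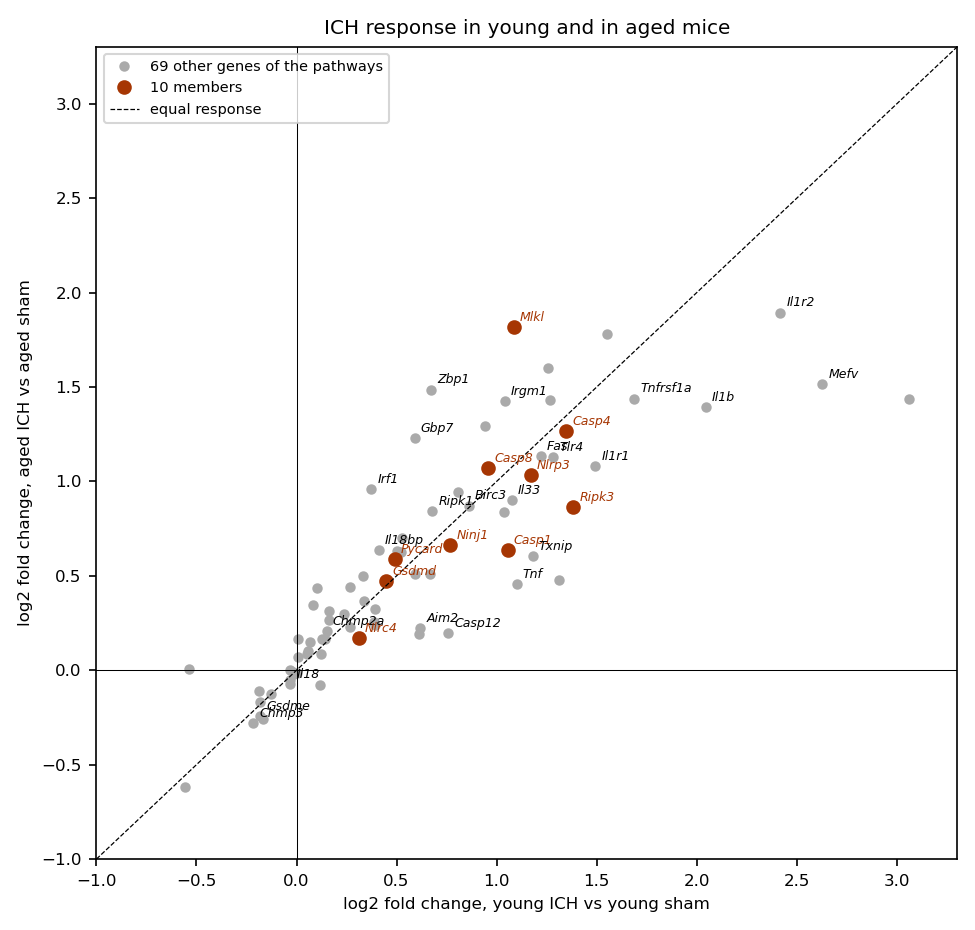
Log2 fold change in young ICH vs. young sham (horizontal axis) and in aged ICH vs. aged sham (vertical axis) for the 10 members (brown) and 69 other genes of the pathways (grey), with a dashed line where both are equal. Mlkl at 1.09 and 1.82 lies above the line, Casp1 at 1.06 and 0.63 and Ripk3 at 1.38 and 0.87 lie below it, and no distance from the line passed the interaction test.

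Neutrophil, monocyte and macrophage markers were higher after ICH, as the members were. Over all genes 9.89% passed as higher and 9.23% as lower in young ICH, and 7% and 6.15% in aged ICH. Where only 1 or 2 genes of a list passed, they are too few to set apart from these shares. Of 13 neutrophil markers 9 could be tested, and 7 passed as higher in young and 6 in aged mice, with summed levels of 11.3 to 13.9 CPM in young sham, 22.1 to 40.2 in young ICH, 16.4 to 27.97 in aged sham and 40.9 to 57.4 in aged ICH. Aged sham thus did not overlap young sham, as in Casp1, although none of the 9 passed between the ages. By the study's criterion 7 of the 9 were upregulated in aged sham vs. young sham and 4 in aged ICH vs. young ICH. Over all genes 2.82% and 2.21% were. The median log2FC of the 9 was 2.50 and 1.13 in these comparisons. Samples did not overlap in 7 and 6 of them, against 9.81% and 6.9% of all genes. Red blood cell markers also did not overlap between the sham groups, in each of 5 genes, with sums of 5.2 to 22.4 CPM in young and 27.8 to 39.5 CPM in aged sham, and none of the 5 passed. By the study's criterion 3 of these 5 were upregulated in aged sham vs. young sham and 0 in aged ICH vs. young ICH. The defining neutrophil gene Ly6g had 0 to 4 counts per sample, and Elane was at 0 in all young samples. Of 12 monocyte and macrophage markers 7 and 6 passed as higher, with sums of 160 to 179 CPM in young sham, 325 to 417 in young ICH, 142 to 258 in aged sham and 349 to 428 in aged ICH. Of 10 homeostatic microglia markers none passed as higher and 2 as lower in each age, with sums of 322 to 401 CPM over all samples. The lists of endothelial markers (5 and 3 of 6 higher), astrocyte markers (3 and 2 of 6 higher, and 1 lower in aged mice) and red blood cell markers (3 and 0 of 5 higher) also held genes that passed. Of 4 T and NK cell markers tested 1 (Cd3e) passed as higher in young mice and none in aged mice, and the sum over the list, most of it Cd4, was 20 to 36.4 CPM in young sham, 7.62 to 22.6 in young ICH, 19.4 to 28.9 CPM in aged sham and 4.52 to 21.3 CPM in aged ICH. The log2FC of Cd4 was -1.06 (adjusted P = 0.21) in young and -1.27 (adjusted P = 0.161) in aged mice. The sum was lowest in aged ICH 1 (4.52 CPM), young ICH 2 (7.62 CPM) and aged ICH 3 (10.5 CPM), which were also lowest in striatal neuron markers. Whether this sum measures T cells was not tested. Of 6 oligodendrocyte markers 3 passed as lower in aged mice. All 9 striatal neuron markers had lower levels in ICH in both ages, with median log2FC of -0.95 in young and -1.13 in aged mice, and all 6 choroid plexus markers had higher levels, with medians of 1.86 and 2.8, and none of either list passed the test. In bulk tissue more cells of a type and more RNA per cell cannot be told apart, and the part of cell composition in the members' values was not tested.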

How the data were processed

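The 10 members, the pathway lists and the marker lists were chosen with earlier results of these data known. The authors removed adapter and low-quality reads, aligned the pairs to GRCm38.p6 with HISAT2 and assigned them to genes with featureCounts of Subread, tools also named in the submitters' processing notes. For each gene they deposited raw counts beside FPKM values, with 1 column per sample. Counts are not normalized, whereas the deposited FPKM are divided by transcript length and mapped fragments. The strand setting and the treatment of reads with several alignments were not given in the sources used here. Tissue was pooled from more than 1 mouse, and the replicates are the samples that the labels number 1 to 3.

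The quasi-likelihood F test of edgeR 4.0.16 (R 4.3.3, with limma 3.58.1) was applied to the counts after TMM scaling, with all 12 samples in a fit of 4 groups, on the 21495 genes that passed filterByExpr (minimum count of 10). P-values were two-sided and adjusted by Benjamini-Hochberg over all of these genes, and 0.05 was the threshold. The SE was taken from the F statistic, intervals were 95%, and CPM used TMM-scaled library sizes. No test used only a list of members. Exact permutation of 3 against 3 samples cannot go below P = 0.1 and was not used. All members were named, with up to 4 genes with the smallest P per pathway list among those past the threshold in ICH vs. sham, in any case 8 genes (Il1b, Il18, Aim2, Ripk1, Zbp1, Tnf, Gsdme and Irf1), and the 3 most correlated genes of each member (log2 CPM with a prior count of 2). Alternatives were RLE scaling, no filter, DESeq2 1.42.0, limma on log2(FPKM + 1), the compared groups alone, a replicate block, the study's criterion, each of the 12 samples left out in turn and, chosen after seeing the data, the 3 samples with choroid plexus markers above 1000 CPM left out. The fit was tested on simulated data. A pathway gene and a correlated gene that the rule for named genes selects are not reported here. Positions are those of GENCODE vM21 (GRCm38), and promoters are RefSeq (GRCm38.p6).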

Additional observations from a re-analysis of the deposited data

How the results depend on the processing

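In the comparisons of ICH with sham the direction of every member was kept under each alternative run, and of 890 values of single members, all alternatives but the last named below, 794 kept direction and side of the threshold, 52 lost and 7 gained significance, and 37 changed direction. The number of members past the threshold ranged from 2 to 9 in young ICH vs. young sham and from 2 to 7 in aged ICH vs. aged sham when 1 sample was left out. Last, leaving out the 3 samples high in choroid plexus markers, an alternative chosen after seeing the data, gave 4 and 1, with fewer samples in the fit. Between sham groups 1 member (Casp1) passed with the study's criterion, no filter on low counts, DESeq2 and the replicate block, against 0 otherwise, and between ICH groups 2 (Casp1 and Mlkl) met the study's criterion. The cause was not tested.

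The replicate numbers did not pair the samples. Deviations from the group means of same-numbered samples correlated between -0.454 and 0.235, and 1 of 12 samples correlated best with its own number. With the replicate block 9 members passed in young and 8 in aged mice (Casp1 was added, adjusted P = 0.0447), and Casp1 passed between sham groups (adjusted P = 0.0494).

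All changes of direction were in comparisons of the ages or the interaction, in values that never passed. With 1 sample left out the log2FC in aged sham vs. young sham ranged from -0.338 to 0.007 for Nlrc4, -0.056 to 0.124 for Pycard, -0.024 to 0.179 for Casp8 and -0.171 to 0.376 for Mlkl. In aged ICH vs. young ICH it ranged from -0.097 to 0.188 for Ninj1 and -0.122 to 0.18 for Ripk3, which was -0.025 with the replicate block. The interaction ranged from -0.442 to 0.169 for Nlrp3, -0.31 to 0.036 for Nlrc4, -0.003 to 0.177 for Pycard, -0.389 to 0.327 for Casp4, -0.039 to 0.136 for Gsdmd, -0.227 to 0.055 for Ninj1 and -0.049 to 0.379 for Casp8. It was 0.022 for Nlrp3 and 0.1 for Casp4 with limma on FPKM, 0.045 for Casp4 with the replicate block, and 0.09, 0.115 and 0.241 for Nlrp3, Nlrc4 and Casp4 without the 3 samples high in choroid plexus markers. With 3 samples per group, 15 to 486 counts per member and sample limit the precision.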
